A study of Mus musculus with 7 samples.

Results

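*Osm*, the gene of the cytokine oncostatin M, and 6 other genes of secreted cytokines (*Ebi3*, *Il10*, *Il23a*, *Csf1*, *Tgfb1* and *Il15*) were followed across single mouse neutrophils from healthy and inflamed tissues. These 7 members were chosen by name, out of 28719 gene symbols in the 7 count tables. In the inflammation library, transcripts of all 7 were counted in neutrophils of the arthritic joint and of the peritoneum. In healthy tissue, *Il10* and *Il23a* had no count in neutrophils of the 3 libraries of run 2, and the tables of run 1, which list genes with at least 11 UMIs, do not list them. All counts are of transcripts, and the proteins were not measured.

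Neutrophils are known for their granule proteins and for phagocytosis, but they also transcribe cytokine genes once they enter inflamed tissue. Oncostatin M belongs to the interleukin-6 family and acts on stromal, endothelial and liver cells through the receptor chains OSMR and gp130. CSF1 is the growth factor of monocytes and macrophages and signals through the receptor CSF1R. EBI3 is a subunit of dimeric cytokines and pairs with p28 (*Il27*) to form interleukin-27 or with p35 (*Il12a*) to form interleukin-35. *Il23a* encodes p19, which becomes interleukin-23 only when joined to p40 (*Il12b*). TGF-beta 1, from *Tgfb1*, is secreted in a latent form that has to be activated outside the cell, interleukin-15 maintains NK and memory T cells, and interleukin-10 dampens inflammation.

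Neutrophils had been sorted as live CD11b+ Ly6G+ PI-negative cells from male C57BL/6J mice. Healthy bone marrow, peripheral blood and spleen gave 1 library each in run 1 (mice aged 6 weeks) and in run 2 (8 weeks), each library being a pool of 3 mice. The inflammation library held 5 conditions, each a pool of 3 mice aged 8 weeks and marked by a hashtag antibody. These were peripheral blood of healthy mice, blood and joint lavage of mice with K/BxN serum transfer arthritis (the labels name the femorotibial joint, the methods the tibiotalar joint), peritoneal lavage after IL-1β, and bronchoalveolar lavage after IL-1β. K/BxN serum (150 µl) was injected intraperitoneally on days 0 and 2 and the cells were taken on day 7. IL-1β (25 ng) was given into the peritoneum or the nose, and the cells were taken after 3 h. The 3 exudates thus differ in stimulus, route and time as well as in site, and these cannot be told apart. Each inflammation condition is a single pool in a shared library, so no test between conditions was possible. Values are CPM, a gene's UMIs over the summed cells scaled to the total UMIs of the group, with exact 95% Poisson intervals, and shares of cells have exact (Clopper-Pearson) intervals. Both kinds of interval cover counting error only, not the spread between mice or cells. A UMI is a molecular tag that marks 1 captured transcript.

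Of 21763 deposited cells, 17202 were kept, all within the limits on quality. The 12445 healthy cells carried at least 3% of their UMIs on *S100a8* and *S100a9*, the most abundant neutrophil transcripts. The 4757 inflammation cells were kept by the authors' ImmGen class, which had to start with GN, without a limit on these transcripts. The cells kept held 1122880 to 9863557 UMIs per inflammation condition and 1299014 to 8454164 per healthy library. The median cell had 2531 UMIs in healthy blood of the inflammation library, 3508 to 3780 in its other conditions and 777 to 2576 in the healthy libraries. All 15 neutrophil markers of the list were detected in all 11 groups. In the inflammation conditions, mast cell or basophil markers were at 0, 11 monocyte or macrophage markers summed to 283 to 390 CPM, and B cell markers summed to 22.9 to 210 CPM. Among healthy libraries, run 2 stood apart by other cells: its blood held 30409 CPM of erythroid transcripts and its spleen 877 CPM of B cell markers within the cells kept. Between 0 and 36 cell barcodes were shared by any pair of the 7 libraries.

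The members lie on 7 chromosomes of the mouse assembly GRCm38, and each is a protein-coding gene. *Osm* spans chr11:4236420-4241026 on the plus strand, *Csf1* chr3:107741048-107760469 (minus), *Ebi3* chr17:55952640-55957022 (plus), *Tgfb1* chr7:25687002-25705077 (plus), *Il15* chr8:82331632-82403222 (minus), *Il23a* chr10:128296139-128298752 (minus) and *Il10* chr1:131019845-131024974 (plus). Exons of *Ebi3* overlap those of the antisense gene *Gm16712*, which had 0 to 4 UMIs in any group against 88 to 558 for *Ebi3*. No exon of another gene overlaps the other 6 members. For *Csf1*, *Tgfb1* and *Ebi3*, the 3 members in the promoter table, the 250 bases before the RefSeq start on GRCm38.p6 are shown 5′ to 3′ on the strand of the gene, because *Csf1* was highest in the joint whereas *Ebi3* and *Tgfb1* were highest in the peritoneum. Capitals mark motif matches.
*Csf1*, chr3:107760470-107760719, minus strand: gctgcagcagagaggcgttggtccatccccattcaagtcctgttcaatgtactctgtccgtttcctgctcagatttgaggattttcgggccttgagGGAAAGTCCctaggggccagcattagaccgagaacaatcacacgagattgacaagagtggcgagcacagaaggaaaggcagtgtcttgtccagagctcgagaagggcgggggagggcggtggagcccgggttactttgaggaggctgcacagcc
*Ebi3*, chr17:55952373-55952622, plus strand: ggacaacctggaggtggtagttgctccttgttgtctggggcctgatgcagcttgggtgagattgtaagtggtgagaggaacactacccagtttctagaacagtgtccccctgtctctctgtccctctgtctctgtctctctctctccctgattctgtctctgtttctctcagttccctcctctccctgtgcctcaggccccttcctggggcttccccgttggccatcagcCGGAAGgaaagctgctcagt
*Tgfb1*, chr7:25686752-25687001, plus strand: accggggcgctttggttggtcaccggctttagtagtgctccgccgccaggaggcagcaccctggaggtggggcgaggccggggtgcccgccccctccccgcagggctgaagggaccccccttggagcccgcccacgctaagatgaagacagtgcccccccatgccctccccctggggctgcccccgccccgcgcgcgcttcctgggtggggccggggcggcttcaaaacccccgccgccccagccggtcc
The motifs searched, on both strands, were NF-kB-like (GGANNTNCC), AP-1 (TGANTCA), STAT (TTCNNNGAA) and the ETS core (CGGAAG). The *Csf1* window held an NF-kB-like match on the strand opposite to the gene, 154 to 146 bases before the start, and the *Ebi3* window an ETS core 20 to 15 bases before it. The *Tgfb1* window held none of the 4. Over 32851 mouse promoter windows of the same 250 bases, 12.2% held the NF-kB-like motif, 6.75% AP-1, 7.02% STAT and 13.6% the ETS core.

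*Osm* was highest in lung lavage. Its level was 33.0 CPM in healthy blood (37 UMIs, interval 23.2 to 45.4), 45.5 in arthritis blood (120 UMIs), 303 in the arthritic joint (2984 UMIs), 93.7 in the peritoneum (88 UMIs) and 678 in the lung (890 UMIs, interval 634 to 724). Both blood samples were low, with overlapping intervals, and each of the 3 exudates was above them. Against healthy blood the lung was 20.6-fold higher (14.8 to 29.4), the joint 9.18-fold (6.65 to 13.1) and the peritoneum 2.84-fold (1.92 to 4.29), whereas arthritis blood differed by 1.38-fold with an interval that includes 1 (0.948 to 2.05). The 2 IL-1β exudates, taken at the same hour after the same dose, were far apart, with the lung 7.24-fold above the peritoneum (5.81 to 9.12). Lung exceeded joint by 2.24-fold (2.08 to 2.42), and joint exceeded arthritis blood by 6.65-fold (5.54 to 8.05).

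**Figure D1:**
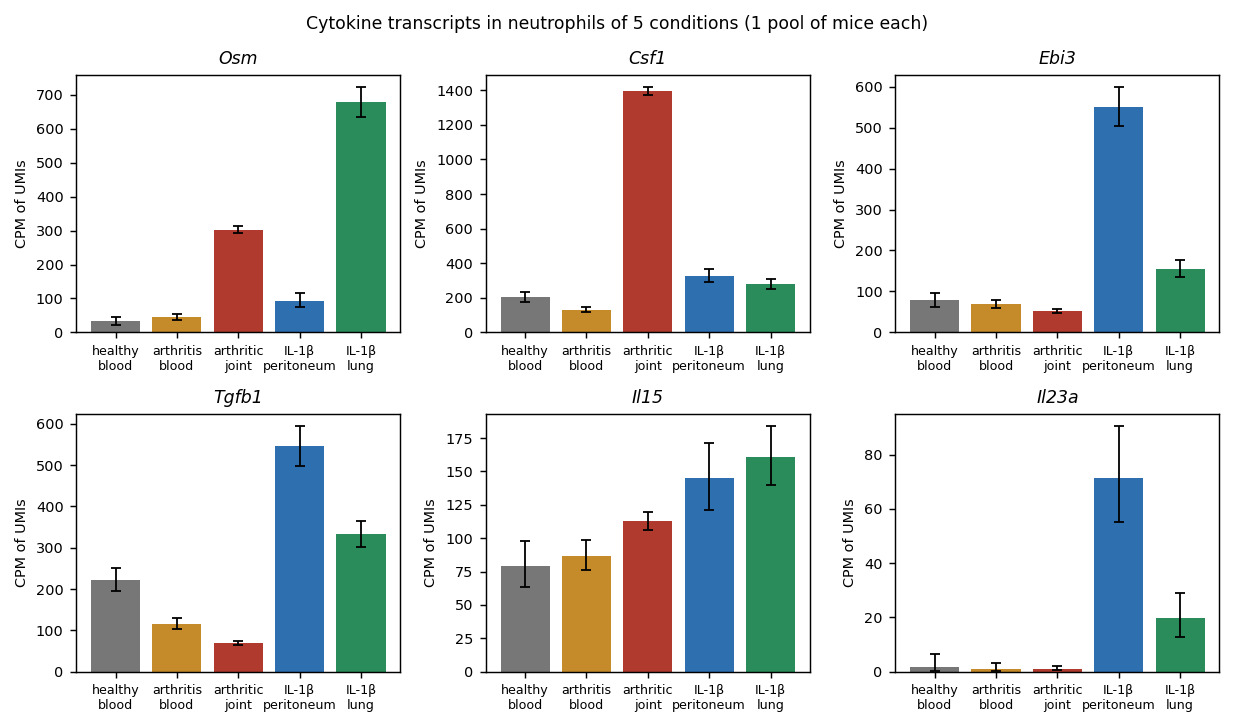
Levels of 6 cytokine transcripts in neutrophils of the 5 conditions of the inflammation library, in CPM of summed UMIs on a linear axis from 0; bars are 1 pool of mice each and error bars are exact 95% Poisson intervals, for counting error only. *Osm* peaked in the lung (678 CPM), *Csf1* in the joint (1397 CPM), and *Ebi3*, *Tgfb1* and *Il23a* in the peritoneum (550.2, 545 and 71.3 CPM).

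*Csf1* had another order. It stood at 204 CPM in healthy blood (229 UMIs), 130.5 in arthritis blood (344 UMIs), 1397 in the joint (13777 UMIs, interval 1374 to 1420), 329 in the peritoneum (309 UMIs) and 281 in the lung (369 UMIs). The joint lay above all 4 other conditions, by 6.85-fold over healthy blood (6.01 to 7.84), 10.7-fold over arthritis blood (9.62 to 11.9), 4.25-fold over the peritoneum (3.79 to 4.77) and 4.97-fold over the lung (4.48 to 5.52). Peritoneum and lung were next to each other, and the interval of their ratio of 1.17 barely excluded 1 (1.00 to 1.36). Arthritis blood was at 0.640 of healthy blood (0.540 to 0.759).

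*Ebi3* and *Tgfb1* were both highest in the peritoneum. *Ebi3* was at 78.4 CPM in healthy blood (88 UMIs), 68.6 in arthritis blood (181 UMIs), 51.4 in the joint (507 UMIs), 550.2 in the peritoneum (517 UMIs, interval 504 to 600) and 155 in the lung (203 UMIs). The peritoneum was therefore 7.02-fold above healthy blood (5.59 to 8.90), 3.56-fold above the lung and 10.7-fold above the joint. The lung was 1.97-fold above healthy blood (1.53 to 2.56). *Tgfb1* was at 221 CPM in healthy blood (248 UMIs), 116 in arthritis blood (305 UMIs), 69.0 in the joint (681 UMIs, interval 64.0 to 74.4), 545 in the peritoneum (512 UMIs) and 332 in the lung (436 UMIs). It was 2.47-fold above healthy blood in the peritoneum (2.12 to 2.88) and 1.50-fold in the lung, but 3.20-fold below it in the joint, where the ratio was 0.313 (0.270 to 0.363). Joint and peritoneum were 7.89-fold apart.

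Over the 5 conditions *Il15* had the narrowest range of the 5 members tested in every comparison. Its level was 79.3 CPM in healthy blood (89 UMIs), 86.9 in arthritis blood (229 UMIs), 113 in the joint (1114 UMIs), 145 in the peritoneum (136 UMIs) and 161 in the lung (211 UMIs). Lung and peritoneum did not differ beyond counting error (ratio 1.11, interval 0.891 to 1.39), and their order turned when cells with a marker UMI of another cell type were left out or when CPM was averaged over cells. Leaving such cells out kept only 29.2% to 43.3% of the cells of a condition. Its marker lists hold *Csf1r*, *Ly6c2* and *Ighm*, and a single UMI drops a cell. The lung was 2.03-fold above healthy blood (1.58 to 2.63).

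*Il23a* and *Il10* were at the low end. *Il23a* gave 2 UMIs in healthy blood, 3 in arthritis blood, 11 in the joint, 67 in the peritoneum and 26 in the lung, or 1.78, 1.14, 1.12, 71.3 and 19.8 CPM. It was 3.60-fold higher in the peritoneum than in the lung (2.26 to 5.90) and 63.9-fold higher than in the joint. Against the 2 UMIs of healthy blood the ratio of the peritoneum was 40.0, with a wide interval of 10.7 to 337. *Il10* was seen in 7 cells of the joint and 4 of the peritoneum, with 1 UMI each (0.710 and 4.26 CPM), and in no cell of the other 3 conditions, where 3 counts would correspond to 1.14 to 2.67 CPM.

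Each ratio was read against the other genes of the same comparison, called when at least 2-fold apart and at 20 CPM or more in 1 of the 2 conditions. In the joint, 2 of 5 members tested were called higher (*Osm* and *Csf1*), against 10.0% of 4821 genes, and 1 was called lower (*Tgfb1*), against 24.1%. In the peritoneum, 4 of 6 members were called higher (*Osm*, *Ebi3*, *Tgfb1* and *Il23a*), against 11.4% of 4805 genes, and 0 lower, against 51.7%. *Il23a* passed the 20 CPM minimum only through the peritoneum, which fixed its call, and without it 3 of 5 were called. In the lung, 2 of 5 were called higher (*Osm* and *Il15*), against 11.4% of 4815 genes, and 0 lower, against 50.5%. In arthritis blood 0 of 5 members were called in either direction, against 0.649% of 4625 genes higher and 7.85% lower. The median log2 ratio of the members was -0.19 in arthritis blood, 0.51 in the joint, 1.40 in the peritoneum (1.30 without *Il23a*) and 0.98 in the lung, beside -0.39, -0.48, -1.05 and -1.02 over all genes tested.

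Those negative medians depend on the scaling. With TMM factors, which weigh the bulk of genes rather than the total, the ratios to healthy blood are multiplied by 1.38 in arthritis blood, 1.49 in the joint, 1.90 in the peritoneum and 1.87 in the lung, and the medians of all genes become 0.12, 0.20, 0.08 and 0.09. The share of genes called higher and lower is then 20.3% and 5.53% in the joint, 25.9% and 18.9% in the peritoneum, 26.2% and 19.4% in the lung, and 3.12% and 0.882% in arthritis blood. On that scale 3 of 5 members were called higher and 1 lower in the joint, and 6 of 6 higher in both the peritoneum and the lung, where the call of *Il23a* was again fixed by the minimum. *Osm* was then 13.7-fold above healthy blood in the joint, 5.39-fold in the peritoneum and 38.6-fold in the lung. *Tgfb1* stayed below healthy blood in the joint at 0.465, and *Ebi3* there was at 0.976. For arthritis blood the direction of *Ebi3* turned, from 0.876 to 1.21. The condition with the highest level was the same for *Osm*, *Csf1*, *Ebi3*, *Tgfb1* and *Il23a* under the 6 alternatives that changed the scaling or the cells kept.

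Shares of cells at equal depth had the same order of conditions for *Osm*, *Csf1* and *Tgfb1*. With every cell thinned to 1000 UMIs, 32.9% of 286 lung cells had an *Osm* transcript (27.5% to 38.6%), 18.9% of 2678 joint cells, 9.09% of 231 peritoneal cells, 4.04% of 668 arthritis blood cells and 3.11% of 354 healthy blood cells. Without thinning these were 57.0%, 39.1%, 16.7%, 12.5% and 6.32%. *Csf1* was seen in 54.0% of thinned joint cells, 21.2% of peritoneal, 18.5% of lung, 14.4% of healthy blood and 12.7% of arthritis blood cells. *Ebi3* was seen in 38.5% of peritoneal and 10.1% of lung cells but in 4.44% to 6.59% elsewhere. For *Tgfb1* the shares were 39.4% in the peritoneum, 31.1% in the lung, 18.6% in healthy blood, 12.3% in arthritis blood and 5.71% in the joint. Thinning left out 56 to 152 cells per condition for shallowness. The red cells of healthy blood in run 2, which should lack these transcripts, had *Osm* in 1.66% and *Tgfb1* in 2.77% of 723 cells at a median of 2753 UMIs, as a measure of free RNA in another library and chemistry.

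**Figure D2:**
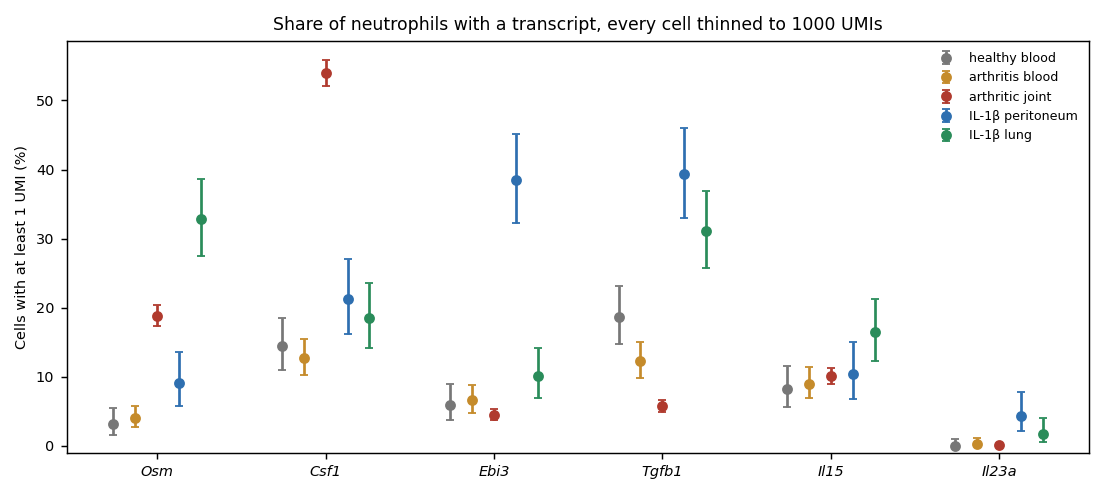
Share of neutrophils, in percent, with at least 1 UMI of each of 6 cytokine genes after every cell was thinned to 1000 UMIs; points are the 5 conditions and error bars exact 95% binomial intervals. *Osm* stood at 32.9% in the lung, *Csf1* at 54.0% in the joint, and *Ebi3* and *Tgfb1* at 38.5% and 39.4% in the peritoneum.

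Transcripts were spread unevenly over cells. In the lung, 61 of 367 cells (16.6%) had 5 or more *Osm* UMIs and the highest cell had 38, and the 10% of cells with the most held 55.2% of all *Osm* UMIs. In the joint, 171 cells (6.12%) reached 5 *Osm* UMIs and the top 10% held 59.8%. *Csf1* in the joint was broader: 1076 cells (38.5%) had 5 or more UMIs, the mean was 4.93 per cell (SD over cells 6.12), and the top 10% held 39.1%. *Ebi3* reached 5 UMIs in 12.2% of peritoneal cells and *Tgfb1* in 10.8%. *Il23a* had 67 UMIs in 26 of 287 peritoneal cells, of which 1 cell had 15.

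**Figure D3:**
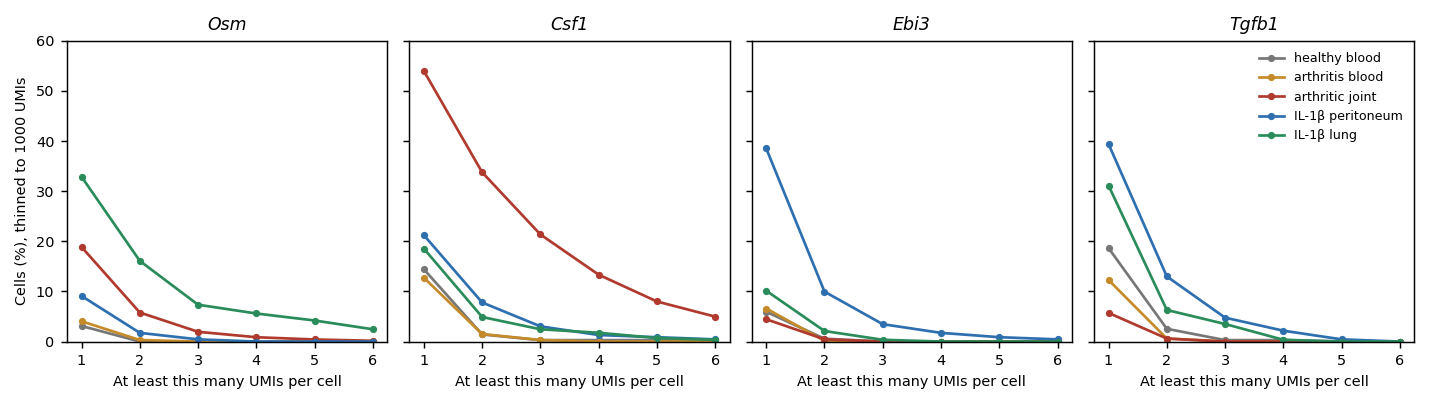
Percent of cells, thinned to 1000 UMIs, with at least the number of UMIs on the x axis, for *Osm*, *Csf1*, *Ebi3* and *Tgfb1* in the 5 conditions of the inflammation library. The joint stands alone for *Csf1*, with 21.4% of cells at 3 or more UMIs against 0.282% in healthy blood, and the lung leads for *Osm* with 7.34%.

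Detection of 2 members in the same cell was examined for pairs of members in each condition, of which those below are a part. Among 505 thinned joint cells with *Osm*, 47.3% also had *Csf1* (42.9% to 51.8%), compared with 55.5% of the cells without *Osm* (53.4% to 57.6%). *Il15* was found in 8.58% of joint cells with *Csf1* (7.19% to 10.2%) and 11.8% of those without (10.0% to 13.7%). In the peritoneum, *Tgfb1* was present in 32.6% of cells with *Ebi3* (23.0% to 43.3%) and 43.7% of those without (35.4% to 52.2%), with overlapping intervals. The intervals of the first pair did not overlap, and many pairs were examined. Other pairs went the opposite way, with overlapping intervals. *Tgfb1* was in 49.0% of peritoneal cells with *Csf1* and 36.8% of those without, and in 39.6% and 29.2% of lung cells. Thinning fixes the number of UMIs per cell, and its part in these shares was not tested.

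The authors' table assigns each cell to the most similar reference class of the ImmGen project, and the members were described within these classes. The classes come from the same expression values, so no test was made. In the joint, *Osm* was at 332 CPM in 2205 cells of class GN.Arth.SynF (synovial fluid of arthritis), 228 in 253 cells of GN.Bl (blood), 104 in 241 cells of GN.Thio.PC (thioglycollate peritoneum) and 111 in 96 cells of GN.UrAc.PC (uric acid peritoneum). *Csf1* had a different pattern in the same cells, at 1515, 233, 1882 and 592 CPM. Cells of the blood class had 233 CPM of *Csf1* in the joint (203 to 267), 175 in healthy blood (150 to 203) and 125 in arthritis blood (112 to 140). Their *Osm* was at 228, 29.5 and 47.7 CPM. In the peritoneum the classes GN.Thio.PC and GN.Arth.SynF had 701 and 502 CPM of *Ebi3*, and 681 and 534 of *Tgfb1*. In the lung, *Osm* was at 709 CPM in 271 GN.Arth.SynF cells and 542 (397 to 724) in 67 GN.Thio.PC cells, whose median was 695 UMIs against 4244.

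**Figure D4:**
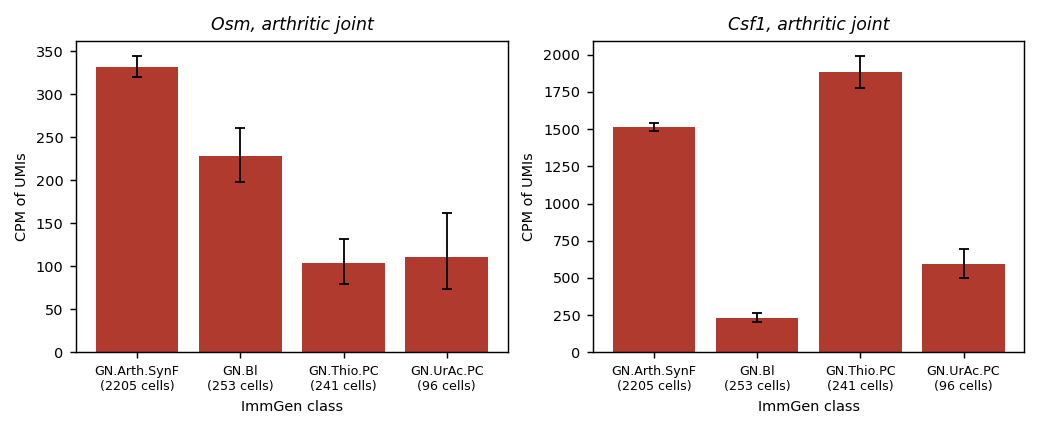
Levels of *Osm* (left) and *Csf1* (right), in CPM of summed UMIs from 0, in neutrophils of the arthritic joint by ImmGen class, with cell numbers under each bar and exact 95% Poisson intervals. *Osm* is highest in GN.Arth.SynF (332 CPM), and *Csf1* is at 1882 CPM in GN.Thio.PC and at 233 CPM in GN.Bl.

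Interferon-stimulated genes were used to divide each condition further, taking the 10% of cells with the largest share of UMIs on 12 such genes. In the lung, these 37 cells had 1515 CPM of *Osm* (1262 to 1804) and the other 330 had 621 (578 to 667), with medians of 2010 and 3921 UMIs per cell. In the joint the order was opposite, 226 (196 to 258) in 280 cells against 311 (299 to 322) in the rest. *Csf1* in the peritoneum was at 595 CPM (455 to 764) in 29 such cells and 296 (260.5 to 336) in the others, and *Il15* at 273 (181 to 395) and 129 (106 to 156).

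The 26 peritoneal cells with an *Il23a* UMI were compared with the other 261 for signs of another cell type. They carried 14.3% of UMIs on *S100a8* and *S100a9* against 17.1%, 414 CPM of monocyte or macrophage markers against 387, and 43.6 CPM of dendritic cell markers against 40.1. *Il12b*, the partner needed for interleukin-23, was at 0 in both sets of cells and in all 5 conditions. Of the partners of EBI3, *Il12a* ranged from 1.78 CPM in healthy blood to 19.0 in the lung and *Il27* from 0.759 in arthritis blood to 3.81 in the lung, so none of the 3 partner genes reached 20 CPM. With TMM scaling *Il12a* passed that minimum in the lung and was called higher there, a call fixed by the minimum. *Adgre1*, a macrophage marker, was at 156 CPM in the peritoneum and 23.6 to 44.5 CPM in the other conditions, and its part in the results there was not tested.

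Receptors of the members were examined from a list of 15. In the joint 1 of 5 tested was called higher and 1 lower, in the peritoneum 3 and 2 of 6, in the lung 2 and 2 of 6 and in arthritis blood 0 and 0 of 5. Of all genes, 10.0% were called higher and 24.1% lower in the joint, 11.4% and 51.7% in the peritoneum and 11.4% and 50.5% in the lung. In arthritis blood these shares were 0.649% and 7.85%. With TMM scaling they were 20.3% and 5.53% in the joint, 25.9% and 18.9% in the peritoneum and 26.2% and 19.4% in the lung. In arthritis blood they were then 3.12% and 0.882%. The shares of each scale also apply to the counts on that scale in the gene lists that follow. With TMM scaling *Tgfbr1* and *Tgfbr2* in the peritoneum (0.793 and 0.837) and *Tgfbr1* in the lung (0.902) were no longer called lower, whereas *Tgfbr1* in the joint (1.66 to 2.48) and *Il10rb* in the lung (1.95 to 3.66) became called higher, which gave 2 and 0 in the joint, 3 and 0 in the peritoneum and 3 and 0 in the lung. *Il10ra*, the ligand-binding chain for interleukin-10, was at 51.7 CPM in healthy blood and at 293 and 289 in peritoneum and lung, and *Il10rb*, its shared second chain, at 159 in healthy blood, 328 in the joint and 407 in the peritoneum. *Il2rg*, the common gamma chain used by interleukin-15, was at 2.67 CPM in healthy blood, 103 in the peritoneum and 93.0 in the lung, and it passed the minimum only through these exudates. *Csf1r*, the receptor of CSF1, was at 167 CPM in healthy blood, 79.2 in the joint, where its ligand was highest, and 68.6 in the lung, ratios that TMM scaling raised to 0.708 and 0.772, no longer called lower. *Osmr*, the receptor chain specific to oncostatin M, had no UMI in any of the 5 conditions, and *Il6st*, encoding gp130, 0 to 1.06 CPM.

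Among 15 genes of the JAK-STAT and SMAD relay, 6 of 14 tested were called higher and 4 lower in the peritoneum, 5 and 4 of 12 in the lung, 2 and 2 of 11 in the joint and 0 and 0 of 11 in arthritis blood. Of these, 4 higher and 1 lower in the peritoneum, 2 and 2 in the lung and 1 and 1 in the joint passed the 20 CPM minimum in only 1 of the 2 conditions compared, *Cish* among them, so that the minimum favoured their calls. With TMM scaling 8 of 13 were higher and 1 lower in the peritoneum, 7 and 2 of 12 in the lung, 2 and 0 of 10 in the joint and 1 and 0 of 10 in arthritis blood. *Socs3*, a feedback inhibitor of gp130 signalling, was at 175 CPM in healthy blood, 181 in arthritis blood, 153 in the joint, 1925 in the peritoneum and 1491 in the lung. *Cish*, a feedback inhibitor of STAT5, was at 7.12, 2.65, 4.16, 286 and 409 CPM, and the kinase gene *Jak2* at 69.5, 52.7, 88.5, 331 and 378 CPM. *Jak1*, at 222 to 434 CPM, and *Stat3*, at 229 to 417 CPM, varied less, although TMM scaling put *Stat3* at 2.68 in the peritoneum and 2.34 in the lung. *Socs3*, *Cish* and *Jak2* were thus high at 3 h after IL-1β and near blood levels in the joint on day 7. Of 14 genes of the TGF-beta family and its latency, 3 of 5 tested were called higher in the peritoneum, 2 of 5 in the lung (with 1 lower) and 1 of 4 in the joint. Of these, 1 call in the peritoneum (*Inhba*) and 2 in the lung (*Inhba* and, lower, *Itgav*) likewise passed the minimum in only 1 of the 2 conditions. With TMM scaling the lung had 3 of 4 higher and 0 lower, as *Furin* went from 1.57 to 2.94 and *Itgav* from 0.458 to 0.859. *Thbs1*, whose product can activate latent TGF-beta, was at 118 CPM in healthy blood, 92.2 in arthritis blood, 3826 in the joint, 1177 in the peritoneum and 3794 in the lung, so that it was high in the joint where *Tgfb1* itself was low. *Furin*, the protease that cleaves the precursor, was at 307 CPM in healthy blood and 782 in the peritoneum. *Nrros*, which holds latent TGF-beta on myeloid cells, was at 86.2 CPM in the peritoneum to 196 in the joint.

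Most of the further cytokine genes listed were sparse, but *Il16* was not. None of 6 further ligands of the interleukin-6 family reached 20 CPM in a condition, their sum being 1.06 to 2.94 CPM, and *Clcf1*, *Lif* and *Il11* were the most abundant of them. Of 10 further colony-stimulating and growth factors, *Vegfa* was called higher in the joint (63.0 CPM against 28.5 in healthy blood), *Csf3* in the peritoneum (25.5 CPM against 0 UMIs, at least 9.56-fold) and *Hbegf* in the lung (49.5 CPM against 0 UMIs, at least 18.5-fold), both bounds being computed against 3 counts in healthy blood. *Csf3* and *Hbegf* passed the minimum only through these exudates, which fixed their calls. Of 16 other interleukins and interferons only *Il16* could be tested. *Il16* was at 262 CPM in healthy blood, 193 in arthritis blood, 92.3 in the joint, 102 in the peritoneum and 48.8 in the lung. It was called lower in the joint, the peritoneum and the lung, but with TMM scaling only in the lung. Genes that respond to dissociation and stress summed to 2252 CPM in healthy blood, 1949 in arthritis blood, 5023 in the joint, 2938 in the peritoneum and 4533 in the lung, so they were highest in the 2 conditions with the most *Osm*, and their part in the result was not tested. Genes of the secondary granules summed to 893, 2283, 877, 11909 and 4424 CPM, of which *Lcn2* alone made 11732 in the peritoneum and 4109 in the lung. *Cebpe* of the same list was at 42.7 CPM in healthy blood and 8.51 in the peritoneum.

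In healthy tissue the members fell into 2 kinds, those that differed between bone marrow and blood and those that did not. Values below are given for bone marrow, blood and spleen, run 1 then run 2, with 2 libraries per tissue. *Csf1* was at 0 (not listed) and 2.84 CPM in bone marrow, 45.4 and 49.9 in blood, and 17.5 and 43.0 in spleen. *Tgfb1* was at 31.8 and 40.5, 122 and 143, and 77.8 and 155 CPM. *Il15* was at 30.4 and 35.7, 84.7 and 94.3, and 41.0 and 99.0 CPM. For these 3 genes both blood and both spleen libraries were above both bone marrow libraries.

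Summed counts were tested with edgeR, by its quasi-likelihood test with the run as a block and Benjamini-Hochberg adjustment over 7599 genes. Between blood and bone marrow 3 of 5 members tested rose, against 9.87% of genes called higher, and 0 fell, against 8.62% called lower. *Csf1* rose by 4.46 on the log2 scale (SE 0.58, edgeR adjusted p = 0.0075), *Tgfb1* by 1.50 (SE 0.21, adjusted p = 0.0085) and *Il15* by 1.06 (SE 0.24, adjusted p = 0.028). In spleen over bone marrow 2 of 5 rose, against 1.51% of genes called higher: *Csf1* by 3.82 (SE 0.58, edgeR adjusted p = 0.034) and *Tgfb1* by 1.37 (SE 0.21, adjusted p = 0.032). Genes not listed in run 1 were set to 0, which touches *Csf1* in bone marrow. Over 15 alternatives its difference was 3.72 to 9.49 in blood and 3.04 to 8.87 in spleen, the lowest with 10 UMIs assigned to genes not listed and the highest without bone marrow of run 2, where the value depends on the prior count of the fit. It was not called in either contrast without the run as a block or without either blood library. *Il15* differed in spleen by 0.73 (SE 0.24, adjusted p = 0.24). Both contrasts share the bone marrow libraries. Markers of other cells moved with these calls. In spleen over bone marrow 4 of 8 B cell markers rose (*Cd79a*, *Ighd*, *Iglc2* and *Ms4a1*), and the list summed to 3.56 and 187 CPM in bone marrow of runs 1 and 2 against 22.4 and 877 in spleen. Without cells carrying a marker UMI of B, T, NK, dendritic or monocytic cells, *Tgfb1* differed by 1.93 in spleen and 1.76 in blood, and *Csf1* by 4.23 and 4.61, all called by edgeR. In blood over bone marrow 2 of 5 platelet markers rose (*Pf4* and *Ppbp*), and the list summed to 3.56 and 2.96 CPM in bone marrow against 98.5 and 155 in blood. The part of platelet RNA in the result was not tested. The 1 dendritic marker tested, *Itgax*, rose by 5.14 in blood and 4.36 in spleen (edgeR adjusted p = 0.0055 and 0.027), with 0 and 0.71 CPM in bone marrow against 22.3 and 22.0 in blood and 7.59 and 17.1 in spleen. Of 8 monocyte or macrophage markers 2 rose in blood (*Adgre1* by 2.08 and *Csf1r*) and 3 fell, and 0 were called in spleen. The sum of that list was 1360 and 1018 CPM in bone marrow, 649.7 and 267 in blood and 1170 and 359.8 in spleen. In blood 1 of 4 T or NK cell markers rose and 1 fell, as did 1 and 1 of 8 B cell markers. Between spleen and blood edgeR called 0 members, beside 0% of genes higher and 0.0658% lower, 0 members had an unadjusted p under 0.05, and DESeq2 also called 0. *Il23a* and *Il10*, at 0 in run 2 and not listed in run 1, could not be tested.

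**Figure D5:**
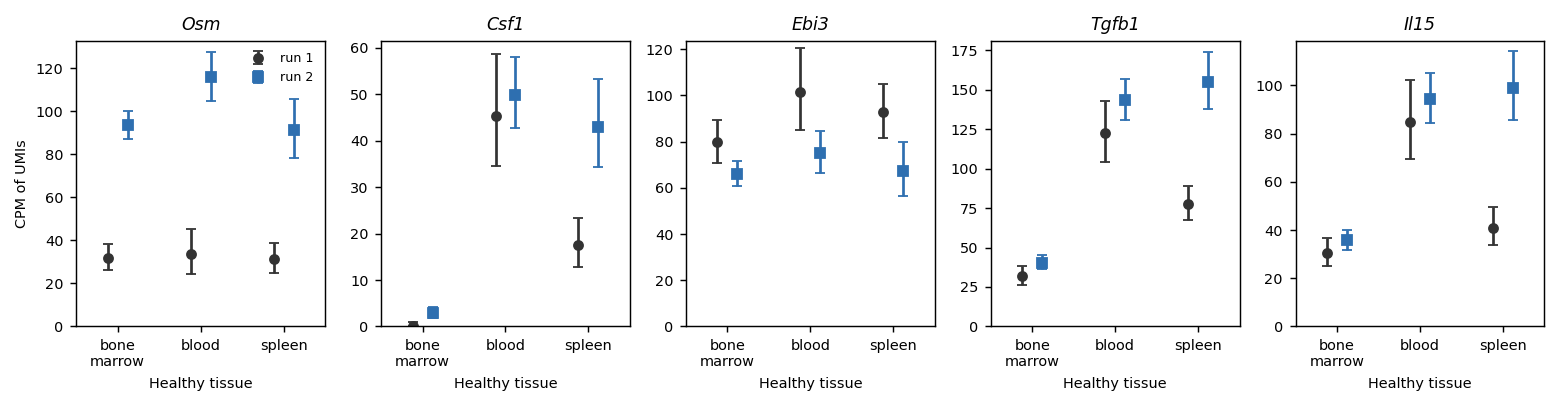
Levels of 5 cytokine transcripts in healthy neutrophils of bone marrow, blood and spleen, in CPM of summed UMIs; circles are run 1, squares run 2, and error bars exact 95% Poisson intervals. *Csf1*, *Tgfb1* and *Il15* lie lower in bone marrow than in blood in both runs, and *Osm* lies at 31.1 to 33.9 CPM in run 1 and 91.2 to 116 in run 2.

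These calls rest on the block, for without it edgeR called 0 members and 0 genes in all 3 contrasts. Without the block the adjusted p for blood over bone marrow was 0.131 for *Csf1*, 0.125 for *Tgfb1* and 0.180 for *Il15*, within ranges over 15 alternatives of 4.0e-11 to 0.131, 9.4e-06 to 0.125 and 0.00077 to 0.258. Leaving out blood of run 1 or blood of run 2 also left 0 members called in either contrast with bone marrow. Without bone marrow of run 2, *Csf1* alone was called in both contrasts, against a bone marrow library in which it is not listed. Without bone marrow of run 1, *Csf1* and *Tgfb1* were called in blood and *Csf1* in spleen.

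*Osm* and *Ebi3* were of the second kind. *Osm* was at 31.8 and 93.6 CPM in bone marrow, 33.9 and 116 in blood, and 31.1 and 91.2 in spleen. *Ebi3* was at 79.7 and 66.0, 102 and 75.1, and 92.7 and 67.4 CPM. Blood and bone marrow differed by -0.15 for *Osm* (SE 0.24, edgeR adjusted p = 0.71) and by -0.12 for *Ebi3* (SE 0.23, adjusted p = 0.76). Both signs are opposite to the order of the CPM, which were higher in blood in both runs. The fit used TMM factors of 0.892 and 0.838 for bone marrow and 1.17 and 1.08 for blood, so the direction depends on the scaling. *Osm* separated the runs instead, at 2.97-fold higher in run 2 (log2 1.57, SE 0.20, edgeR adjusted p = 0.0035), a difference called for 414 genes (5.45%). The adjusted p of the other 4 members for the run was 0.17 to 0.33. Run coincides with the age of the mice, the Cell Ranger version and the depth per library, which cannot be told apart. When cells with a marker UMI of another cell type were left out, *Osm* fell by 0.64 from bone marrow to blood (edgeR adjusted p = 0.043, range over 15 alternatives 0.043 to 1) and by 1.08 from bone marrow to spleen (adjusted p = 0.0039, range 0.0039 to 1). That filter drops a cell for a single such UMI, and the share of healthy cells it kept is not given here.

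Healthy blood of the inflammation library had 33.0 CPM of *Osm*, 204 of *Csf1*, 78.4 of *Ebi3*, 221 of *Tgfb1* and 79.3 of *Il15*. This library differs in reagent chemistry from runs 1 and 2 by the study's methods. Its levels were set against theirs only in the ranking of similar profiles below.

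Of the listed receptors, edgeR called 5 of 6 tested higher in healthy blood than in bone marrow (*Csf1r*, *Il10ra*, *Il10rb*, *Tgfbr1* and *Tgfbr2*), with *Csf1r* by 2.47 (SE 0.34, adjusted p = 0.0084), against 9.87% of all genes. Of the JAK-STAT and SMAD relay 4 of 14 rose, among them *Jak2*, *Stat5b* and *Socs3*, the last by 3.53 (SE 0.39, edgeR adjusted p = 0.0055). In the TGF-beta list *Furin* and *Nrros* rose and *Inhba* fell. In spleen over bone marrow *Socs3* rose by 2.83 (SE 0.38, edgeR adjusted p = 0.025) and no receptor was called. As for the members, none of these calls was made without the run as a block. Stress genes moved with these contrasts, from 139 and 449 CPM in bone marrow to 1927 and 2509 in blood and 423 and 2016 in spleen, and their part was not tested.

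Within each healthy library, cells were divided into 3 equal bins by their share of secondary granule transcripts, the first bin holding the least mature cells. *Tgfb1* was higher in the third bin than in the first in 6 of 6 libraries, for example 37.0 against 257 CPM in spleen of run 1 and 43.0 against 45.7 in bone marrow of run 2. *Il15* was higher in 5 of 6, *Csf1* in 4 of 6 and *Ebi3* in 4 of 6. *Osm* was higher in 3 and lower in 3, from 40.5 to 180.4 CPM in bone marrow of run 2 but from 27.3 to 10.8 in spleen of run 1. The median cell of the third bin had fewer UMIs than that of the first in every library.

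Genes with the most similar profile were ranked by Pearson correlation of log2(CPM + 10) over the 11 groups among 3416 genes, as a description. For *Osm* these were *Cdkn1a* (r = 0.917), a cell cycle inhibitor, and *Nfil3* (r = 0.914), a transcription factor, followed by *Smim3*, *Creb5* and *Zkscan6*. *Cdkn1a* was at 1.78 CPM in healthy blood, 4.55 in arthritis blood, 84.7 in the joint, 47.9 in the peritoneum and 285 in the lung, the same order as *Osm*. Closest to *Csf1* was *Nfkbid* (r = 0.984), an IkB-like regulator of NF-kB, at 103, 72.8, 336, 136 and 189 CPM, followed by *Sgms2*, *Calr*, *Atp2b1* and *Atp1b3*. For *Ebi3* the list was led by *Rnd1* (r = 0.966) and held *Tmem2*, *Lacc1* and *Il23a* (r = 0.944). For *Tgfb1* it was led by *Siglece* (r = 0.971), an inhibitory receptor, followed by *Socs3* (r = 0.947), *Myd88*, *Spata13* and *Crebl2*. For *Il15* it held *Mvp* (r = 0.974), *Hcls1*, *Srgn* and *Il1rap*. The groups share libraries, chemistry and depth, so the points are not independent, and the 11 groups mix chemistries. Over the 5 inflammation conditions alone r was 0.975 for *Osm* and *Cdkn1a*, 0.944 for *Csf1* and *Nfkbid* and 0.987 for *Ebi3* and *Rnd1*. It was 0.980 for *Tgfb1* and *Siglece*, 0.873 for *Tgfb1* and *Socs3* and 0.843 for *Il15* and *Mvp*.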

How the data were processed

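Tables of UMI counts, with genes as symbols and cells as barcodes, were deposited by the authors, who made them with Cell Ranger on mm10 (versions 1.2.0, 2.1.0 and 3.0.2 for run 1, run 2 and the inflammation library, per the methods) before their cell filters. Hashtag doublets had been removed by the authors, and no doublet caller was run on the healthy cells. Sample labels name chemistries and an instrument that differ from the methods. Tables of run 1 list genes with at least 11 UMIs. Here, cells were kept with at most 5% mitochondrial UMIs and genes per cell between the 1st and 99th percentiles (280 to 1841.88). Healthy cells also had *S100a8* and *S100a9* at 3% of UMIs or more. Inflammation cells had an ImmGen class starting GN instead, with no limit on these genes. Free RNA was not removed. Summed counts of healthy libraries, 2 per tissue, were tested with edgeR 4.0.16 in R 4.3.3 (TMM, filter on low counts, tissue plus run, FDR of 0.05). The 3 tissues of each run share their mice, per the methods. Deviations of same-run samples from tissue means correlated at r = 0.564 to 0.671. Any difference between the runs that the tissues have in common would also give such values, so r does not test the pairing. On simulated data for blood against bone marrow (7210 genes), 26 of 100 changes of 2-fold and 88 of 100 of 4-fold were recovered, with 7 false calls. Ratios between conditions have exact 95% binomial intervals on their UMIs. DESeq2 1.42.0, other normalizations, filters and cell limits were tried as alternatives, and 1 was added after seeing the data. Besides the members, genes were named that were among the 3 most abundant of a pathway list, were called in a healthy contrast or had 1 of the 5 profiles most like a member's. *Il2rg*, *Osmr*, *Il6st*, *Cish*, *Csf3*, *Itgav*, *Pf4*, *Ppbp*, *Itgax*, *Adgre1* and the B cell markers were added after their values were seen. Some genes that these rules name are not reported here. Members and lists were chosen with earlier results of these data known.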

Additional observations from a re-analysis of the deposited data

Results flagged for a closer look

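*Tgfb1* moved in opposite directions in 2 exudates relative to healthy blood, with a ratio of 0.313 in the arthritic joint and 2.47 in the peritoneum after IL-1β. With 1 pool of mice per condition, the difference was not tested.

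Cells below the limit of 3% *S100a8* and *S100a9* in spleen of run 2 (2343 cells), left out of the comparisons as reported, also carried the members. Their levels were 8.91 CPM for *Osm*, 6.02 for *Csf1*, 15.2 for *Ebi3*, 226 for *Tgfb1* and 7.70 for *Il15*, each above the level that 3 counts would give, and 1 of these cells had an *Il10* UMI. Among them, 1299 B cells had *Tgfb1* in 35.5% of cells at 278 CPM.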

How the results depend on the processing

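Without the run as a block 0 genes and 0 members were called for blood over bone marrow, spleen over bone marrow and spleen against blood, in place of 1405, 115 and 5 genes and 3, 2 and 0 members. With 1 library left out, genes ranged from 0 to 2423, 0 to 1126 and 0 to 655, and members from 0 to 3 in both bone marrow contrasts. A lone library of a tissue was then assumed to vary like the others. Spleen over bone marrow gave 199 genes with DESeq2, 204 with no filter, 215 with no limits on cells, 46 (and 1 member) at 10% *S100a8* and *S100a9*, and 614 with genes not listed in run 1 set to 10 UMIs, an alternative chosen after seeing the data. Spleen against blood gave 13 with DESeq2, 10 with no filter and 159 with genes not listed set to 10 UMIs. Without cells carrying a marker UMI of another type the 3 contrasts gave 911, 719 and 21.

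For the inflammation library, genes higher and lower than in healthy blood numbered 30 and 363 in arthritis blood, 484 and 1162 in the joint, 546 and 2484 in the peritoneum and 551 and 2432 in the lung. TMM scaling gave 124 and 35, 858 and 234, 1109 and 811, and 1128 and 838, with 6 members higher in the lung. A minimum of 100 CPM gave 15 and 22, 256 and 331, 336 and 724 (2 members higher), and 307 and 727, because fewer genes were tested. Arthritis blood gave 69 and 212 without *S100a8* and *S100a9* in the total, 100 and 698 without cells carrying other markers, and 52 and 554 as a mean over cells. Under the same settings 4, 5 and 4 members were higher in the lung. The share of all genes higher in the lung is not given for them, so these member counts cannot be read against it. The share of cells with *Osm* was 6.32%, 12.5%, 39.1%, 16.7% and 57.0% in healthy blood, arthritis blood, joint, peritoneum and lung when not thinned, and 2.25%, 11.2% and 21.8% in arthritis blood, joint and lung at 500 UMIs, where fewer UMIs were drawn per cell and no cell was left out. The cause of the other differences was not tested. *Il10* rests on 11 UMIs, and at this depth its absence in the other conditions is not shown.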
